A study of Mus musculus with 4 samples.

Results

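The genes described here are 10 enzymes of arginine and proline metabolism, taken by symbol from the deposited table as Arg1, Arg2, Nos2, Ass1, Asl, Odc1, Oat, Pycr1, Aldh18a1 and Prodh. All 10 were found among the 17691 genes of the table. The study sequenced lung RNA of C57BL/6 mice that were wild type and 6 to 8 weeks old. Bleomycin, a DNA-breaking drug that injures the lung and leads to fibrosis, was given intranasally for a treatment time of 10 days, and control mice received PBS, a buffered salt solution, by the same route. The files hold 2 bleomycin libraries and 2 PBS libraries, and the labels name no further agent, allele or batch. The series' design text speaks of triplicates, while 2 libraries per group were analysed here.

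Arginine stands at a branch point. Arginases split it into ornithine and urea, and nitric oxide synthases turn it into nitric oxide and citrulline. Citrulline is rebuilt into arginine by argininosuccinate synthase and lyase. Ornithine feeds the polyamines through ornithine decarboxylase, or proline through ornithine aminotransferase and the pyrroline carboxylate reductases. Proline is also made from glutamate and is broken down by proline dehydrogenase in mitochondria. In lung, arginase is known as a product of alternatively activated macrophages, inducible nitric oxide synthase as a product of inflamed macrophages and epithelium, and proline as a main building block of collagen.

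Values are FPKM, fragment counts scaled to transcript length and library size, so that levels can be set side by side between genes. Fold changes and tests are on the log2(FPKM + 1) scale, bleomycin minus PBS, from limma with Benjamini-Hochberg adjustment over all 12986 genes that averaged at least 1 FPKM. This scale understates the change of low genes. "Rose" and "fell" are used of genes with an adjusted p under 0.05. Of the 10 genes, 9 were tested and Pycr1 lay below the filter on low values. The labels do not say that the libraries came from separate animals, so p-values measure how far these samples spread, and that spread may be technical.

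Both groups carried the defining transcripts of lung. Sftpc, the surfactant gene of alveolar type II cells, stood at 10880 and 7913 FPKM in the bleomycin libraries and at 10220 and 12790 FPKM in the PBS libraries. The groups did not match in sex-linked transcripts: the 4 measured Y-linked genes summed to 0.02 and 0.03 FPKM in the bleomycin libraries and to 52.0 and 51.6 FPKM in the PBS libraries. Bleomycin and the difference in sex-linked transcripts therefore cannot be told apart in any result below. The 13 listed hepatocyte genes summed to 10.7 and 9.61 FPKM in the bleomycin libraries, against 104.4 and 104.0 FPKM in the PBS libraries. Depth, estimated from the spacing of low FPKM values, was about 17200000 and 17800000 fragments in the bleomycin libraries and 17000000 and 17100000 fragments in the PBS libraries.

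Arg1, Nos2 and the proline synthesis gene Aldh18a1 rose, Prodh fell, and the other 5 tested members did not pass. That is 3 rises and 1 fall among 9 genes, or 44.4%, where limma called 16.3% of all tested genes (8.59% higher and 7.69% lower). The median log2 fold change was 0.34 over the 9 members and -0.02 over all tested genes. The members were chosen with earlier results of these data known, so neither the called share nor the median tests the pathway. The groups did not overlap for 6 of the 9, against 66.5% of all tested genes (31.5% higher and 35% lower with bleomycin), so that share is near the background. In whole lung, more cells of a type and more RNA per cell cannot be told apart, and likewise fewer cells and less RNA. The calls depend on single libraries. Without PBS replicate 1 or PBS replicate 2 limma called 0 of the 9 members and 0 genes in all, with Arg1 at an adjusted p of 0.145 and 0.147, while 3 members were above and 1 below at unadjusted p-values under 0.05 in either case. With bleomycin replicate 1 or bleomycin replicate 2 left out, the log2 fold change of Arg1 was 2.025 and 2.394. It was 1.154 and 1.337 for Nos2, 1.161 and 1.238 for Aldh18a1, and -0.985 and -0.694 for Prodh. Those of Ass1, Odc1 and Oat differed in sign between these fits.

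**Figure D1:**
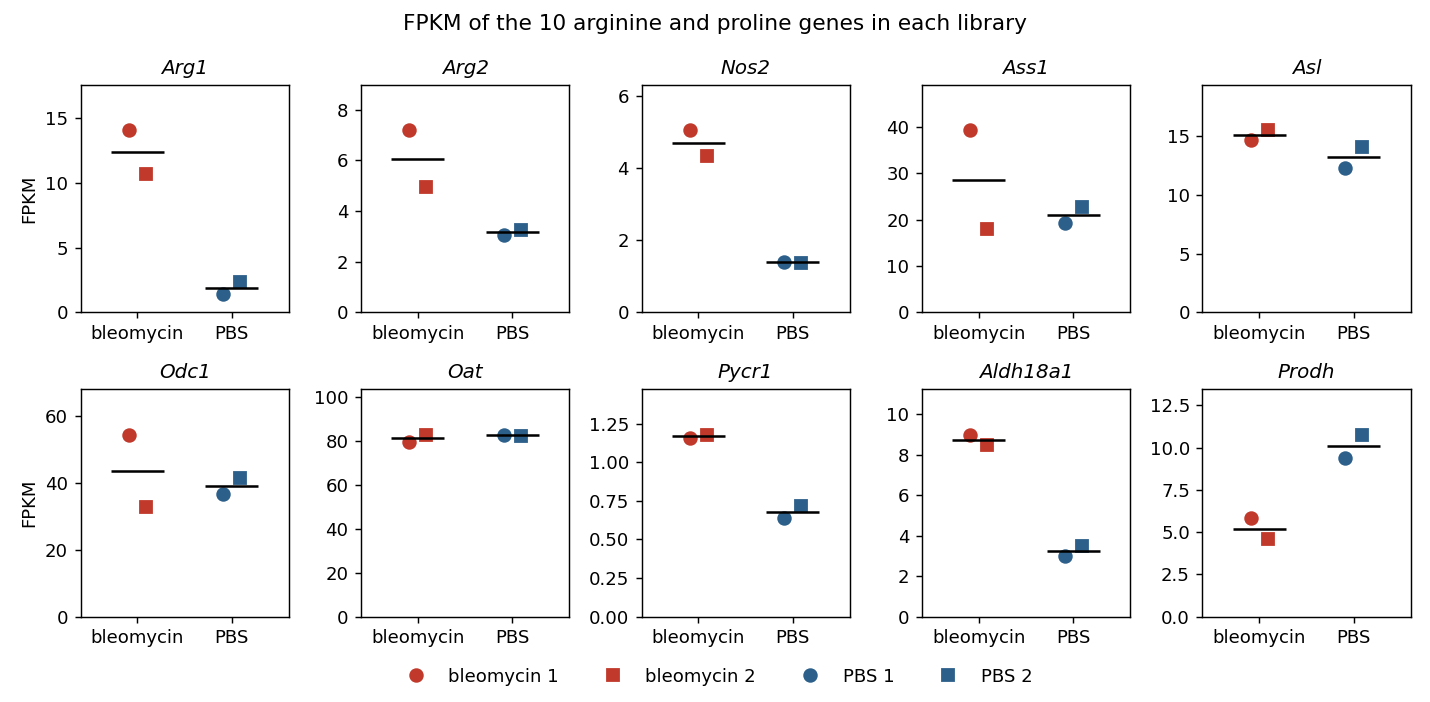
FPKM of each of the 10 genes (y axis, linear from 0, a separate scale per panel) in the bleomycin libraries (red, left) and the PBS libraries (blue, right), with circles for replicate 1, squares for replicate 2 and a bar at the mean of 2 libraries. Arg1, Nos2 and Aldh18a1 lie higher in both bleomycin libraries and Prodh lower, while for Ass1 and Odc1 the bleomycin libraries lie on either side of both PBS libraries.

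Arg1 encodes the cytosolic arginase (gene 11846, GRCm38.p6 chromosome 10, 24915207 to 24927470). It was at 14.0 and 10.6 FPKM in the bleomycin libraries and at 1.45 and 2.34 FPKM in the PBS libraries. Both bleomycin libraries lay far above both PBS libraries. The means were 12.3 ± 2.40 FPKM with bleomycin and 1.90 ± 0.629 FPKM with PBS (SD, n = 2 each), a 6.51-fold difference in mean FPKM. The log2 fold change was 2.21 ± 0.21 (SE, limma adjusted p = 0.00938), the 51st highest among the tested genes. The PBS values rest on few fragments, an estimated 36 and 59, against 357 and 280 with bleomycin.

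Arg2 encodes the mitochondrial arginase (gene 11847, chromosome 12, 79130788 to 79156301). Its levels were 7.18 and 4.96 FPKM with bleomycin and 3.07 and 3.24 FPKM with PBS. The groups did not overlap, but the bleomycin libraries lay well apart. The log2 fold change of 0.75 ± 0.18 (SE) did not pass (limma adjusted p = 0.0552), with a 95% interval of 0.28 to 1.22. Arg2 passed when the FPKM were rescaled, at a limma adjusted p of 0.0342 with quantile normalization, 0.0377 as TPM and 0.0441 with upper quartile scaling. It passed also with array weights by group (limma adjusted p = 0.0319) and without bleomycin replicate 1 (0.0142) or bleomycin replicate 2 (0.00107). Its annotated end shares 285 bases with Vti1b, a gene on the opposite strand that stood at 64.9 and 56.5 FPKM with bleomycin and 70.1 and 73.8 FPKM with PBS. Whether counting used strand is not given in the sources used here, and without strand reads from the shared stretch cannot be told apart.

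Nos2, the inducible nitric oxide synthase that competes with arginase for arginine (gene 18126, chromosome 11, 78920787 to 78960226), was at 5.05 and 4.33 FPKM with bleomycin and at 1.41 and 1.38 FPKM with PBS. The groups were well separated, and the PBS libraries were almost equal. Mean FPKM was 3.36-fold higher with bleomycin, and the log2 fold change was 1.25 ± 0.13 (SE, limma adjusted p = 0.0102). Arg2 and Nos3, the other arginase and a further synthase, did not pass.

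The balance of the branches was read from ratios of FPKM + 1 within each library. The log2 ratio of Arg1 to Nos2 was 1.31 and 1.13 in the bleomycin libraries and 0.02 and 0.49 in the PBS libraries. The log2 ratio of Arg1 to Arg2 was 0.88 and 0.97 with bleomycin and -0.73 and -0.34 with PBS, so that Arg1 was the higher arginase transcript in both bleomycin libraries and Arg2 in both PBS libraries. For both ratios the groups did not overlap. With 2 libraries against 2 the two-sided exact permutation test cannot go below p = 0.333, which is the value it gave for both (0.5 after Benjamini-Hochberg adjustment over the 6 pairs compared).

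**Figure D2:**
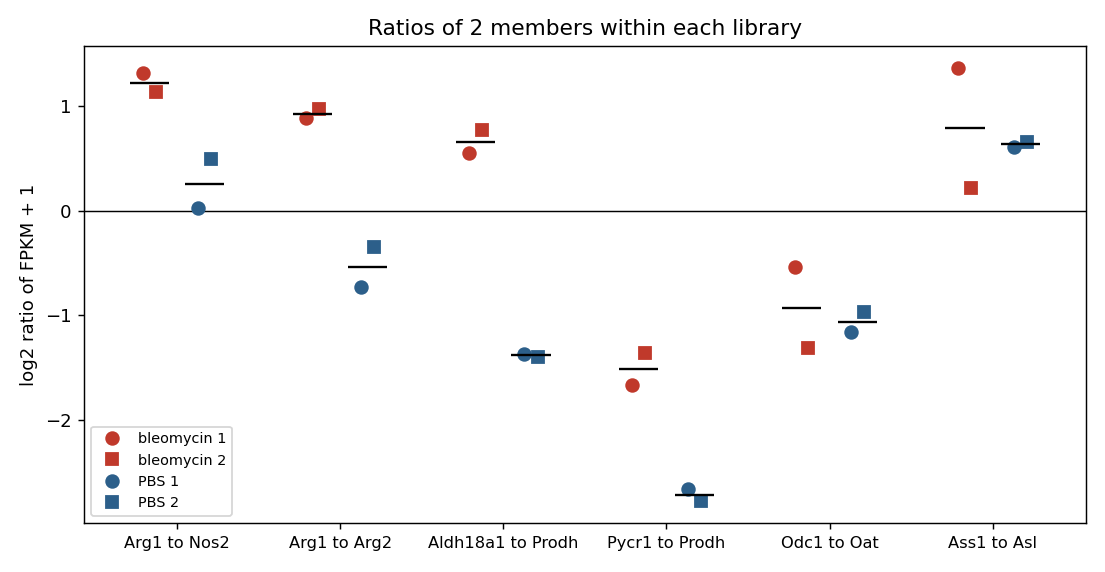
Log2 ratio of FPKM + 1 between 2 members within each library (y axis) for 6 pairs (x axis), bleomycin in red on the left and PBS in blue on the right of each pair, circles for replicate 1, squares for replicate 2 and bars at the mean. The Aldh18a1 to Prodh ratio is 0.55 and 0.76 with bleomycin and -1.37 and -1.40 with PBS, while the groups overlap for Odc1 to Oat and Ass1 to Asl.

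Macrophage markers differed by list. For comparison with the counts below, 8.59% of all tested genes rose and 7.69% fell. Of 12 listed genes of recruited or alternatively activated macrophages 9 rose and 0 fell, with summed levels of 2273 and 2745 FPKM in the bleomycin libraries and 548 and 634 FPKM in the PBS libraries. Retnla, a secreted product of alternatively activated macrophages, stood at 722 and 982 FPKM with bleomycin and at 78.0 and 71.8 FPKM with PBS. Of 8 genes of resident alveolar macrophages 0 rose and 1 fell, with sums of 627 and 1308 FPKM with bleomycin and 598 and 710.2 FPKM with PBS. The fall was that of Car4, which is also on the list of endothelial markers. Chil3, which did not pass, is on both macrophage lists, so their sums share this gene. It was the largest term of the resident sums in every library. In the other macrophage list's sums it was the largest term in the PBS libraries and in the second bleomycin library. Its level differed between the bleomycin libraries, at 316 FPKM in the first and 1050 FPKM in the second. Of 8 neutrophil genes 4 fell and 0 rose, with sums of 202 and 153 FPKM with bleomycin and 435 and 559 FPKM with PBS, and Ly6g was listed at 0 in the second bleomycin library. Hepatocytes are another source of Arg1 in the body, and of 10 tested hepatocyte genes 9 fell and 0 rose, Alb being at 1.01 and 0.66 FPKM with bleomycin and at 14.4 and 14.2 FPKM with PBS. The part of these cell types in the rises of Arg1 and Nos2 was not tested.

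The genes most like Arg1 were sought by the Euclidean distance of log2(FPKM + 1) profiles over the 4 libraries, each centred on its PBS mean, among 12226 tested genes not annotated to the X or Y chromosome, predicted genes left out. The 5 nearest were Gdf15 at a distance of 0.08, Ackr1 at 0.18, Lcn2 at 0.23, Lilrb4a at 0.24 and Ccna2 at 0.29. Gdf15, a stress-induced cytokine and the nearest of them, was at 9.55 and 6.94 FPKM with bleomycin and at 0.69 and 1.20 FPKM with PBS. With 4 libraries such likeness is a description of these samples.

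The arginine-rebuilding enzymes did not pass the test. Ass1, argininosuccinate synthase (gene 11898, chromosome 2, 31470270 to 31520670), was at 39.3 and 18.1 FPKM with bleomycin and at 19.3 and 22.7 FPKM with PBS. The first bleomycin library had the highest value of the 4 and the second the lowest. The log2 fold change of 0.34 ± 0.36 (SE) had a 95% interval of -0.62 to 1.29 (limma adjusted p = 0.549). The gap between the bleomycin libraries, 1.08 on the log2 scale, was larger than that of 97.7% of the tested genes.

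Asl, argininosuccinate lyase (gene 109900, chromosome 5, 130011258 to 130024381), was steadier, at 14.6 and 15.5 FPKM with bleomycin and at 12.3 and 14.1 FPKM with PBS. The groups lay close together without overlapping, and the log2 fold change of 0.18 ± 0.10 (SE) had an interval of -0.09 to 0.45 (limma adjusted p = 0.271). The log2 ratio of Ass1 to Asl was 1.36 and 0.21 with bleomycin and 0.61 and 0.66 with PBS, so the groups overlapped (two-sided exact permutation p = 1.0). The hepatic urea cycle genes Cps1 and Otc lay below the filter, Cps1 at 0.05 and 0.03 FPKM with bleomycin and at 0.57 and 0.45 FPKM with PBS.

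Odc1, ornithine decarboxylase, which commits ornithine to polyamines (gene 18263, chromosome 12, 17544808 to 17551502), behaved much like Ass1. It was at 54.4 and 32.7 FPKM with bleomycin and at 36.5 and 41.5 FPKM with PBS, again with the bleomycin libraries at the top and the bottom. The log2 fold change was 0.12 ± 0.25 (SE, limma adjusted p = 0.775), with a 95% interval of -0.54 to 0.77. Leaving out the second bleomycin library let both pass, Ass1 at 0.88 (limma adjusted p = 9.88e-04) and Odc1 at 0.47 (limma adjusted p = 0.0089), while leaving out the first turned both signs, to -0.20 for Ass1 and -0.24 for Odc1.

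Other genes that parted the bleomycin libraries were looked up after the values of Ass1 and Odc1 had been seen. Irf8, an interferon-regulated transcription factor, was at 27.7 and 13.8 FPKM in the 2 bleomycin libraries and at 19.0 and 22.0 FPKM in the PBS libraries. Itgax, which encodes CD11c, was at 51.1 and 13.7 FPKM with bleomycin and 17.8 and 16.0 FPKM with PBS. Macrophage genes parted the bleomycin libraries in both directions. Marco, on the same resident alveolar macrophage list as Itgax, was at 11.7 and 64.2 FPKM with bleomycin and 6.24 and 6.04 FPKM with PBS. Chil3 and Cd163 were likewise higher in the second bleomycin library, Chil3 at 316 and 1050 FPKM and Cd163 at 2.28 and 10.6 FPKM. The part of these differences between the libraries in the levels of Ass1 and Odc1 was not tested.

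**Figure D3:**
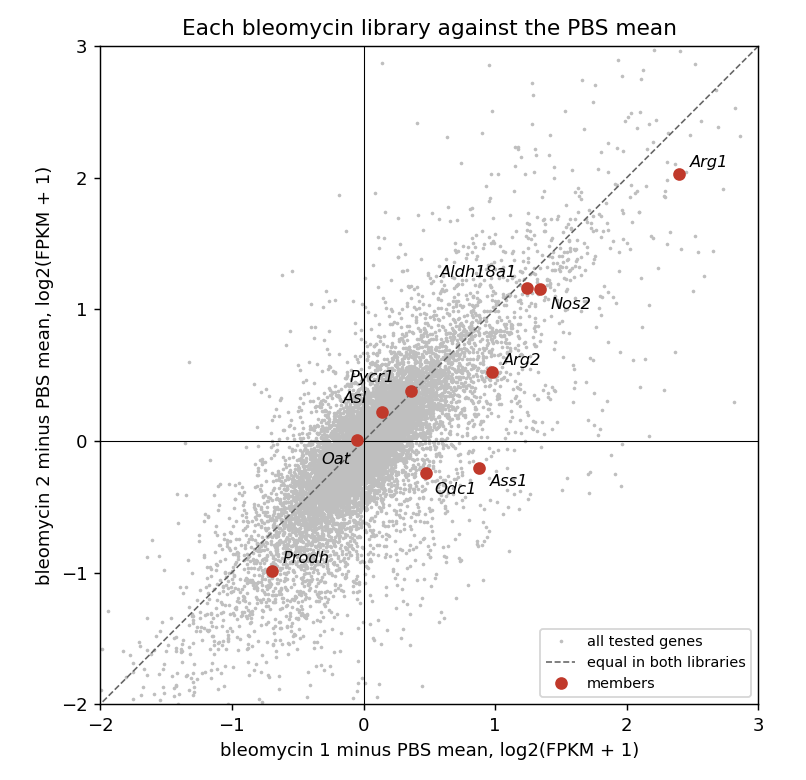
Log2(FPKM + 1) of bleomycin library 1 (x axis) and bleomycin library 2 (y axis), each minus the mean of the PBS libraries, for the 10 members (red, named) and all tested genes (grey, of which 130 lie outside the plotted range of -2 to 3). Arg1, Nos2, Aldh18a1, Pycr1 and Prodh lie near the dashed line of equal change, whereas Ass1 (0.88 and -0.20) and Odc1 (0.47 and -0.24) have opposite signs in the 2 libraries.

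Of 11 tested polyamine genes other than Odc1, 1 rose and 0 fell, or 9.09% called against 16.3% of all tested genes. Srm, spermidine synthase, was at 31.8 and 27.2 FPKM with bleomycin and at 17.5 and 19.8 FPKM with PBS, a log2 fold change of 0.63 ± 0.12 (SE, limma adjusted p = 0.0309). The call was lost with no filter on low values (limma adjusted p = 0.0565), with a replicate block (0.0570) and without PBS replicate 1 (0.272) or PBS replicate 2 (0.221). Oaz1 and Oaz2, the antizymes that target ornithine decarboxylase for degradation, did not pass, with log2 fold changes of 0.08 ± 0.10 and -0.28 ± 0.11 (SE). All 7 listed genes of cycling cells rose in the same libraries, with sums of 82.4 and 71.1 FPKM with bleomycin and 16.5 and 16.4 FPKM with PBS, and their part in the rise of Srm was not tested.

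Oat, ornithine aminotransferase, which links ornithine to proline and glutamate (gene 18242, chromosome 7, 132557475 to 132576398), had the highest level of the 10 genes in both groups. It was at 79.6 and 82.8 FPKM with bleomycin and at 82.8 and 82.1 FPKM with PBS. The log2 fold change was -0.02 ± 0.08 (SE, limma adjusted p = 0.862), and its 95% interval of -0.22 to 0.18 leaves out changes as large as those of Arg1 or Aldh18a1. The sign turned positive, at 0.05, when rescaled to TPM. The log2 ratio of Odc1 to Oat was -0.54 and -1.31 with bleomycin and -1.16 and -0.97 with PBS, with overlapping groups (two-sided exact permutation p = 1.0).

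Aldh18a1 rose and Prodh fell, at the first steps of proline synthesis from glutamate and of proline breakdown. Aldh18a1 encodes pyrroline carboxylate synthase, the first enzyme from glutamate to proline (gene 56454, chromosome 19, 40550257 to 40588463). It was at 9.0 and 8.48 FPKM with bleomycin and at 3.02 and 3.47 FPKM with PBS, 2.69-fold higher in mean FPKM with bleomycin. Both replicate pairs were tight, with means of 8.74 ± 0.368 FPKM with bleomycin and 3.25 ± 0.318 FPKM with PBS (SD, n = 2 each). The log2 fold change was 1.20 ± 0.11 (SE, limma adjusted p = 0.00895).

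Pycr1 encodes the mitochondrial reductase that completes proline (gene 209027, chromosome 11, 120638998 to 120643748). Its level was the lowest of the 10 genes in both groups, at 1.16 and 1.18 FPKM with bleomycin and at 0.64 and 0.72 FPKM with PBS. The groups did not overlap and the mean FPKM was 1.72-fold higher with bleomycin, from an estimated 58 and 61 fragments with bleomycin and 32 and 36 with PBS. It was not tested in the main comparison. With no filter on low values its log2 fold change was 0.37 ± 0.07 (SE, limma adjusted p = 0.0595), which did not pass. The related reductase Pycrl stood far higher and did not pass either, at 10.6 and 11.6 FPKM with bleomycin and 10.3 and 8.98 FPKM with PBS.

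Prodh encodes proline dehydrogenase, which starts the breakdown of proline (gene 19125, chromosome 16, 18071726 to 18089283). It was the member that fell, at 5.83 and 4.58 FPKM with bleomycin and at 9.37 and 10.8 FPKM with PBS. Both bleomycin libraries lay below both PBS libraries. Mean FPKM was 48.3% lower with bleomycin, and the log2 fold change was -0.84 ± 0.14 (SE, limma adjusted p = 0.0261). With no filter on low values it missed the threshold (limma adjusted p = 0.0565). Of 10 tested hepatocyte genes 9 fell in the same libraries, where 7.69% of all tested genes fell. The part of hepatocyte genes in the fall of Prodh was not tested.

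Within a library, the log2 ratio of Aldh18a1 to Prodh was 0.55 and 0.76 with bleomycin and -1.37 and -1.40 with PBS. The plain ratio of FPKM was 1.54 and 1.85 with bleomycin and 0.322 and 0.322 with PBS, so the order of the transcripts was opposite in the groups. The log2 ratio of Pycr1 to Prodh was -1.66 and -1.36 with bleomycin and -2.66 and -2.78 with PBS, with Prodh the higher in all 4 libraries. The groups did not overlap for either ratio, and the two-sided exact permutation p was 0.333 for each, the smallest that 4 libraries allow.

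The promoters of Pycr1, Aldh18a1 and Prodh are shown as those of the proline members other than Oat, whose levels overlapped between the groups. Pycr1 was not tested at the filter used. RefSeq promoter sequences (GRCm38.p6, 250 bases before to 50 bases after the gene start) were at hand for 6 of the 10 genes, Ass1, Odc1, Oat, Pycr1, Aldh18a1 and Prodh. They were searched on both strands for TGATGNAA, the core of the amino acid response element bound by ATF4 and C/EBP factors, for CACGTG, the E-box bound by Myc among others, and for the STAT6 palindrome. Capitals mark the matches. For Prodh and Odc1 the start used lies inside the gene bounds printed above, so those windows reach less than 250 bases before the bounds. The windows are Pycr1 at chr11:120643699-120643998, Aldh18a1 at chr19:40588414-40588713 and Prodh at chr16:18089141-18089440, all on the minus strand and written from 5′ to 3′ of the gene.
Pycr1: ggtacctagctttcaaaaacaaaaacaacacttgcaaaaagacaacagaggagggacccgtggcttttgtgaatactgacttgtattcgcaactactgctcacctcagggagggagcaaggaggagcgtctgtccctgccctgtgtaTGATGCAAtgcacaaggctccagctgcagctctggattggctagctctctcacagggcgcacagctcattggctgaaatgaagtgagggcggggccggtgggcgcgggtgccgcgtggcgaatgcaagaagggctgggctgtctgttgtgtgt
Aldh18a1: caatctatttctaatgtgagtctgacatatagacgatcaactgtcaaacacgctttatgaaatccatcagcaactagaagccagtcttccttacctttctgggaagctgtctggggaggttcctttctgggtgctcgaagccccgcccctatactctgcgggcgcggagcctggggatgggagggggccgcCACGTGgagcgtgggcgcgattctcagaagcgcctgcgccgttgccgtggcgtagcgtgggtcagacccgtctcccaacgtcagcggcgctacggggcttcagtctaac
Prodh: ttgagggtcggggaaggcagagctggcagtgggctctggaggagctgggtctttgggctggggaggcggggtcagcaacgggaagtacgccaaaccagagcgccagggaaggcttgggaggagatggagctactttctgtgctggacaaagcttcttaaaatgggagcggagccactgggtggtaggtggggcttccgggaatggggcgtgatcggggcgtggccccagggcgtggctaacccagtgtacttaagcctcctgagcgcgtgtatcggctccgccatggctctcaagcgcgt

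Pycr1 held 1 match to TGATGNAA, 103 bases before the gene start, and it was the one promoter of the 6 with it, against 3.97% of all 32851 promoters of this length. Aldh18a1 held CACGTG 59 bases before the gene start, and Ass1 held it 36 bases before, against 7.15% of all promoters. Prodh, Odc1 and Oat held none of the 3 motifs in this window. The STAT6 palindrome was in 0 of the 6, against 6.95% of all promoters. A match describes the letters and shows no binding. Of the factors, Myc rose, at 10.9 and 12.2 FPKM with bleomycin and 4.02 and 4.19 FPKM with PBS (log2 fold change 1.29 ± 0.10, SE, limma adjusted p = 0.00741). Atf4 was at 130 and 119 FPKM with bleomycin and 110 and 128 FPKM with PBS, with overlapping groups (limma adjusted p = 0.679), and its target Ddit3 fell (-0.58 ± 0.09, SE, limma adjusted p = 0.0228).

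The nearest profiles to Aldh18a1 over the 4 libraries were Tmem254a, Fcgr4, Clec5a, Shcbp1 and Cks2, at distances of 0.06 to 0.11. Those nearest to Prodh were Agmo, Tpst1, Art3, Adarb1 and Rprml, at distances of 0.05 to 0.10. Fcgr4, an immunoglobulin receptor of myeloid cells, was at 17.0 and 15.5 FPKM with bleomycin and at 6.36 and 6.90 FPKM with PBS. Agmo, which cleaves ether lipids, was at 5.52 and 4.45 FPKM with bleomycin and at 9.33 and 10.5 FPKM with PBS, close to Prodh in level as well.

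**Figure D4:**
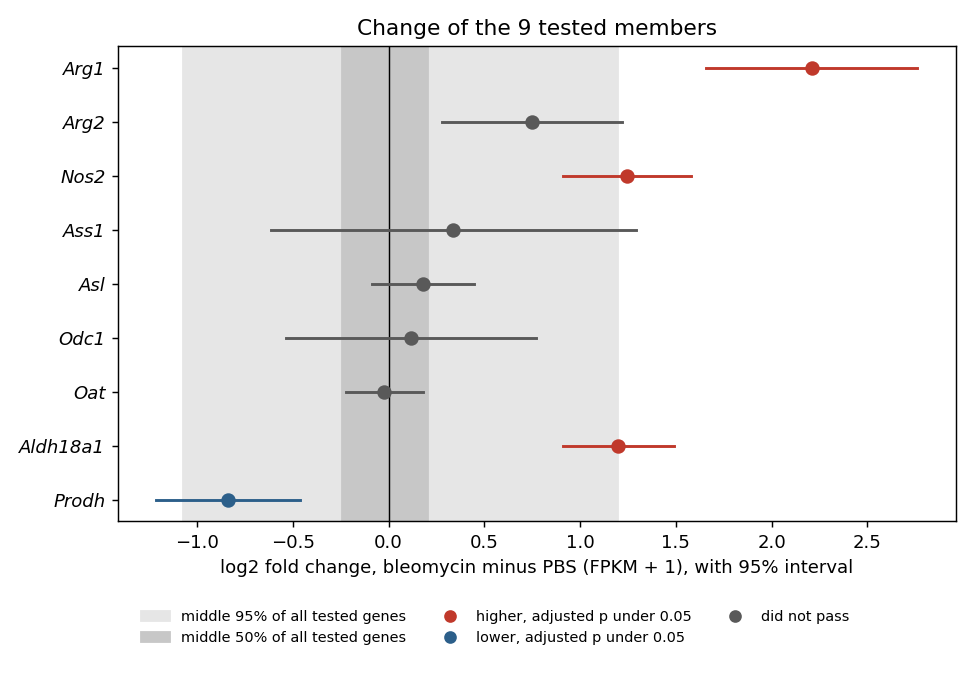
Log2 fold change of the 9 tested members (x axis, bleomycin minus PBS on log2(FPKM + 1), bars for the 95% interval), red for higher, blue for lower and grey for genes that did not pass, over bands that hold the middle 50% and the middle 95% of all tested genes. Arg1 at 2.21 and Nos2 at 1.25 lie beyond the upper edge of the wide band at 1.20, Aldh18a1 lies at that edge, and the interval of Oat spans 0.

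Ordered by mean FPKM, the bleomycin libraries ran Oat, Odc1, Ass1, Asl, Arg1, Aldh18a1, Arg2, Prodh, Nos2 and Pycr1. The PBS libraries ran Oat, Odc1, Ass1, Asl, Prodh, Aldh18a1, Arg2, Arg1, Nos2 and Pycr1. The 4 highest and the 2 lowest places were the same, while Arg1 stood 5th with bleomycin and 8th with PBS and Prodh 8th with bleomycin and 5th with PBS. Neighbours whose libraries overlapped were Odc1 and Ass1, Arg2 and Prodh, and Prodh and Nos2 with bleomycin, and Aldh18a1 and Arg2 with PBS.

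Beyond the members, 58 further genes of the pathway and its surroundings were listed, and 49 were tested. Of these 9 rose, 2 fell and 38 did not pass, or 22.4% called against 16.3% of all tested genes. Their median log2 fold change was 0.19. The lists were chosen with earlier results of these data known, so neither value tests the pathway. Of the 6 genes of proline hydroxylation and collagen 4 rose and 0 fell. P4ha3, a prolyl hydroxylase subunit, was at 8.57 and 19.0 FPKM with bleomycin and 0.89 and 0.73 FPKM with PBS (log2 fold change 2.94 ± 0.36, SE, limma adjusted p = 0.0139). Col1a1, a chain of type I collagen, was at 327 and 434.5 FPKM with bleomycin and 96.6 and 83.1 FPKM with PBS (2.06 ± 0.17, SE, limma adjusted p = 0.00741). Col3a1, the chain of type III collagen, rose by 1.37 ± 0.15 on the log2 scale (SE, limma adjusted p = 0.0121). All 4 rises had both bleomycin libraries above both PBS libraries, which the call itself makes likely. That order held for 31.5% of all tested genes. Of 9 fibroblast markers, Col1a1 among them, 5 rose and 2 fell, and their sums were 1399 and 1517 FPKM with bleomycin and 2974 and 3580 FPKM with PBS, with Inmt making up most of the PBS sums. Their part in the rises of the collagen genes was not tested. P4hb, the shared hydroxylase subunit, rose by 0.64 ± 0.15 (SE, limma adjusted p = 0.0483), close to the threshold. That call was lost with no filter on low values, quantile normalization, upper quartile scaling, eBayes without trend, robust eBayes and a replicate block, at limma adjusted p-values of 0.0503 to 0.0825, and without PBS replicate 1 (0.295) or PBS replicate 2 (0.302). The hydroxylase subunits P4ha1 and P4ha2 did not pass, at -0.36 ± 0.15 and 0.32 ± 0.20 (SE). Without bleomycin replicate 1 they were at -0.56 and 0.58, and without bleomycin replicate 2 at -0.15 and 0.05.

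Around nitric oxide, Ddah1, which removes the methylated arginines that inhibit nitric oxide synthases, was at 20.1 and 19.7 FPKM with bleomycin and at 10.9 and 10.1 FPKM with PBS. It rose by 0.87 ± 0.09 (SE, limma adjusted p = 0.00987), the 1 call among 7 tested genes there. That is 14.3% called, against 16.3% of all tested genes. Nos3, the endothelial synthase, did not pass, at 12.9 and 22.5 FPKM with bleomycin and 10.6 and 11.8 FPKM with PBS. Of endothelial markers 3 of 7 fell and 0 rose, where 7.69% of all tested genes fell. Car4, among these 3, is also on the resident alveolar macrophage list. Cdh5, Pecam1, Cldn5 and Aplnr did not pass. Among arginine carriers, Slc7a1 and Slc7a2 did not pass, with log2 fold changes of 0.54 ± 0.13 and 0.41 ± 0.13 (SE, limma adjusted p = 0.0524 and 0.0957). Slc7a1 passed with quantile normalization, as TPM, with upper quartile scaling, with eBayes without trend and with array weights by group, at limma adjusted p-values of 0.0336 to 0.0471, and without bleomycin replicate 1 (0.0303) or bleomycin replicate 2 (0.00728). Slc7a2 passed without bleomycin replicate 2 (limma adjusted p = 0.0389).

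Around glutamate, Glul, glutamine synthetase, fell, at 137 and 102 FPKM with bleomycin against 249 and 232 FPKM with PBS (log2 fold change -1.02 ± 0.16, SE, limma adjusted p = 0.023). Got1, the cytosolic aspartate aminotransferase, rose, at 12.3 and 11.6 FPKM with bleomycin and 7.14 and 7.69 FPKM with PBS (0.62 ± 0.09, SE, limma adjusted p = 0.0203). The more abundant Glud1 and Got2 did not pass, at 0.08 ± 0.08 and 0.25 ± 0.09 (SE). None of 4 tested genes of proline breakdown other than Prodh passed, Pepd and Xpnpep1 being the most abundant, at 0.13 ± 0.13 and 0.23 ± 0.08 (SE). At an unadjusted p under 0.05 limma gave 1 of these 4, Xpnpep1, and 2231 higher and 2349 lower genes among all 12986 tested. Hif1a rose by 0.78 ± 0.12 (SE, limma adjusted p = 0.0221). Stat6, the factor downstream of interleukin receptors of alternative activation, did not pass (-0.38 ± 0.11, SE, limma adjusted p = 0.0827). The log2 fold change of Stat6 was -0.51 without bleomycin replicate 1 and -0.26 without bleomycin replicate 2.

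**Figure D5:**
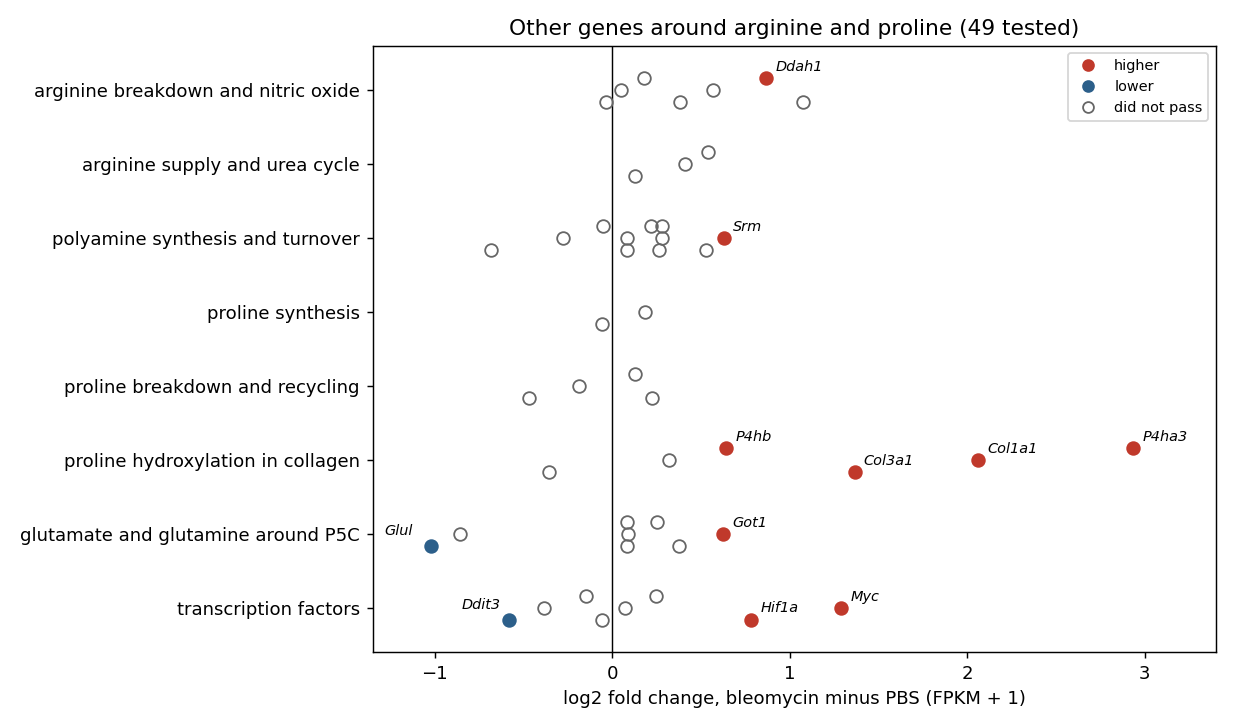
Log2 fold change (x axis, bleomycin minus PBS on log2(FPKM + 1)) of the 49 tested genes other than the members, by list (y axis), with filled red points for genes that rose, filled blue for genes that fell and open circles for genes that did not pass. The 4 rises of the collagen row reach 2.94 for P4ha3, and the 2 falls are Glul and Ddit3.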

How the data were processed

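RNA of whole mouse lung was measured by RNA-seq in 2 bleomycin and 2 PBS libraries, grouped by their GEO labels. The deposited table holds FPKM per gene, made by the authors. Per the submitters' processing notes, the builds were GRCm38 and mm10, and HISAT and Bowtie2 were among the tools. Not given in the sources used here were their roles and versions, the quantifier and the use of strand. The table holds no counts, so no count model was used. Gene names that a spreadsheet had turned into dates were restored (27), and 1 nameless row was left out, with at most 0.0009% of a library.

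Log2(FPKM + 1) was fitted with limma 3.58.1 in R 4.3.3 (variance trend, two-sided) for the 12986 of 17691 genes averaging 1 FPKM or more, with Benjamini-Hochberg adjustment over all of them and a threshold of 0.05. The pseudocount of 1 understates changes of low genes. The code was tested on simulated data. Ratios within libraries were compared by exact permutation tests (scipy 1.17.1). Depth was estimated from steps in low FPKM values with transcript lengths, and 75.0% to 78.1% of the values used lay within 0.15 of a whole fragment; the best-fitting depth was chosen, so these shares are overstated. Fragment numbers are estimates of counting depth only. Gene coordinates and promoters are from RefSeq, GRCm38.p6.

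The members and lists were chosen with earlier results of these data known. Named are all members, every called gene of the pathway lists, up to 2 others per list with the highest mean (1 result under this rule is not reported here), up to 3 per marker list, and the 5 nearest profiles to Arg1, Aldh18a1 and Prodh; Irf8, Itgax, Marco, Cps1, Otc and some markers were named after their values were seen. Alternatives were other pseudocounts, filters, scalings and variance models, a replicate block, leaving out each library, and array weights by group, the last added after seeing the data.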

Additional observations from a re-analysis of the deposited data

How the results depend on the processing

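Limits first: 2 libraries per group leave 2 residual degrees of freedom, and calls lean on the tight PBS pair (median SD of log2 values 0.115 for bleomycin and 0.0637 for PBS). With 1 library in a group, that library is assumed to vary like the other group. Leaving out each library in turn gave 0 to 6 members higher (3 with all libraries) and 0 to 1 lower (1 with all), 0 to 21 other pathway genes higher (9 with all) and 0 to 8 lower (2 with all), and 0 to 2402 of all genes higher (1116 with all) and 0 to 3144 lower (998 with all). The counts of 0 came without PBS replicate 1 or 2, where limma gave 1120 higher and 1007 lower genes, and 1143 and 1059, at an unadjusted p under 0.05. With no filter on low values 0 members were lower, Prodh having an adjusted p by limma of 0.0565, and 811 genes were higher and 739 lower. Array weights by group, chosen after seeing the data, called 4 other pathway genes lower. The numbers 1 and 2 are not known to pair the libraries. Deviations from the group means of same-numbered libraries correlated at 0.0231 over genes, which with 1 difference per group cannot decide it. With the replicate block 3 members were higher and 1 lower, 8 and 2 other pathway genes, and 842 and 799 of all genes. Rescaling to TPM called 1444 genes higher and 887 lower. Without one library at a time, Ass1 ranged over -0.202 to 0.876, Odc1 over -0.242 to 0.472, Pepd over -0.0394 to 0.30 and Oat over -0.0496 to 0.00588, each changing sign without bleomycin replicate 1. Atf4 ranged over -0.0349 to 0.181, changing sign without PBS replicate 1. The log2 ratio difference without bleomycin replicate 1 turned to -0.25 for Odc1 to Oat and -0.42 for Ass1 to Asl, and reached 0.52 and 0.73 with another library left out. Oat also turned positive as TPM (0.0461) and with upper quartile scaling (0.0173). The differences of the other ratios stayed positive, at 0.73 to 1.20 for Arg1 to Nos2, 1.27 to 1.65 for Arg1 to Arg2, 1.93 to 2.15 for Aldh18a1 to Prodh and 1.06 to 1.36 for Pycr1 to Prodh. The cause of these shifts was not tested.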
